A study of Mus musculus with 6 samples.

Results

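The Polycomb complex genes described here are 10 genes chosen by name, by a rule that uses no measured value, out of the 16440 genes measured: Ezh1, Ezh2, Suz12, Eed and Jarid2 of Polycomb repressive complex 2 (PRC2), Bmi1, Ring1, Rnf2 and Cbx7 of Polycomb repressive complex 1 (PRC1), and Asxl1, which encodes a cofactor of the Polycomb deubiquitinase. All 10 passed the filter on low values, which asked that 3 or more libraries reach a value of 1, and none shared its locus with another gene of the table. RNA was sequenced from sorted mouse bone marrow (BM) cells in 6 libraries, 3 from normal myeloid progenitors (MPs) and 3 from leukemic progenitors, to ask how the leukemic cells differ from their normal counterparts. The sort for normal MPs took Lin-Sca-1-c-Kit+ cells and so avoided both mature cells and the Sca-1+ stem cell fraction. The leukemic cells were sorted as GFP-labelled c-Kit+ cells of acute promyelocytic leukemia (APL). Both groups were of the strain FVB N/J, and the labels give neither the age of the mice nor any drug treatment for them.

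The APL cells descended from hMRP8-PML/RARα transgenic mice, in which a promoter active in myeloid cells drives the human fusion of PML with retinoic acid receptor α. They had been marked with a GFP-expressing MigR1 retrovirus and grown in syngeneic mice by transplantation, steps that the normal MPs had not gone through. The design text calls the 3 libraries of a group biological replicates, but the sources used here do not say how many leukemias or mice they came from, so p-values measure the spread between libraries.

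PRC2 places methyl groups on lysine residues of histone H3 to give the repressive mark H3K27me3, with either Ezh2 or Ezh1 as the catalytic subunit and Suz12 and Eed as the partners without which neither enzyme is active. PRC1 places ubiquitin on histone H2A through the E3 ligases Ring1 and Rnf2, each paired with a PCGF subunit such as Bmi1, and its canonical form carries a CBX subunit such as Cbx7 that binds H3K27me3. In blood, Bmi1 and Cbx7 are known for keeping stem cells self-renewing, Ezh2 is highly expressed in dividing progenitors, and several PRC2 genes and ASXL1 are mutated in human myeloid disease.

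For the catalytic pair and for the members that rose, the 250 bases before the RefSeq transcription start are shown (mouse build GRCm38, written 5′ to 3′ on the gene's strand), because these sequences stand in front of the genes whose RNA levels are compared below. Capitals mark CCAAT boxes, searched as CCAAT on both strands.
Ezh2, chr6:47595031-47595280, minus strand: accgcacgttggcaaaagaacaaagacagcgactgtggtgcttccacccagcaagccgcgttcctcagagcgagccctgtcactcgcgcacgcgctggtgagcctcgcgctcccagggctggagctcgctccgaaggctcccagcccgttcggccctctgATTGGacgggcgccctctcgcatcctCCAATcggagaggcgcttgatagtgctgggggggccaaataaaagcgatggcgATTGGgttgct
Ezh1, chr11:101226464-101226713, minus strand: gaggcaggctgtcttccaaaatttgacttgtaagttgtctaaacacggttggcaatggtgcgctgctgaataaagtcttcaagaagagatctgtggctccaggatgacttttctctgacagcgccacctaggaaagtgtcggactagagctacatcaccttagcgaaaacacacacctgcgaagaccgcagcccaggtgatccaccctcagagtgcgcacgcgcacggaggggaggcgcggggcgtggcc
Jarid2, chr13:44730524-44730773, plus strand: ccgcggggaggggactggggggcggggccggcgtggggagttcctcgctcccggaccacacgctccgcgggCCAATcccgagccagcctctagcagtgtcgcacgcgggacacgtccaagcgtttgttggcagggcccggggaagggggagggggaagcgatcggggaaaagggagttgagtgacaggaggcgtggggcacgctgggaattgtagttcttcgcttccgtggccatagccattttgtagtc
Cbx7, chr15:79932647-79932896, minus strand: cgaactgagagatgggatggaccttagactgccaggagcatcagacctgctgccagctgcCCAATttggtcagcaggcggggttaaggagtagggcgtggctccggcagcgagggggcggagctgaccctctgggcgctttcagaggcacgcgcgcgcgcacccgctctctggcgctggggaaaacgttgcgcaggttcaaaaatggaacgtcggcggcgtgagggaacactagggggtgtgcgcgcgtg

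Ezh2 had 3 CCAAT boxes in this window, the Jarid2 and Cbx7 windows had 1 each, and Ezh1 had 0. Among all 10 genes, 4 had at least 1 CCAAT box, Suz12 being the other one, compared with 33.8% of 32851 windows of the same length before mouse genes. An E2F site, searched on both strands as TTTGGCGC, TTTCGCGC or TTTCCCGC, was present in the window of Suz12 alone among the 10, and in 1.53% of all windows. The half-site AGGTCA that retinoic acid receptors can bind was in 0 of the 10 windows and in 14% of all windows. The 10 windows held between 11 CpG dinucleotides (Asxl1) and 37 (Suz12), all above the median of 6 over all windows. These motifs were chosen after expression values had been seen, and a match or its absence describes only the letters of the window.

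Against the normal MPs, c-Kit+ APL progenitors had lower Ezh2 and Eed and higher Jarid2 and Cbx7 RNA, while Ezh1, Suz12 and Bmi1 overlapped between the groups. A gene was called when the adjusted p of limma (Benjamini-Hochberg over the 14595 genes tested) was under 0.05 and the fold change was over 1.5, and fold changes are on the scale of log2(scaled fragments + 1), where scaled fragments are the fragments of a gene multiplied by a factor of its library. By this rule 4 of the 10 genes (40%) were called, and 46.1% of all genes tested were called. The calls were 2 higher and 2 lower, which is 20% in each direction, beside 21.7% of all genes called higher and 24.4% called lower. The groups did not overlap for 7 of the 10 genes and for 70.9% of all genes. At any fold, 7 of the 10 and 67.0% of all genes had an adjusted p under 0.05. The shares among the 10 genes were therefore near those of the whole table. Their median log2 fold change was -0.24, beside a median of -0.10 over all genes.

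**Figure D1:**
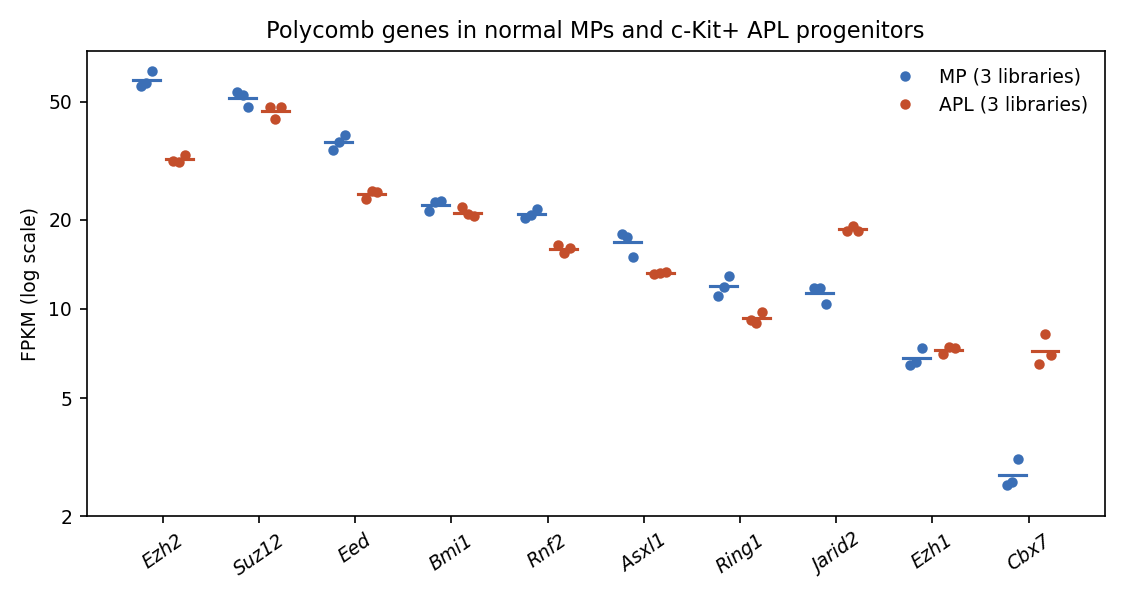
FPKM (log axis) of the 10 Polycomb genes in each library, with 3 normal MP libraries in blue, 3 c-Kit+ APL libraries in red and a bar at the mean of each group. The APL points of Ezh2 lie between 31.2 and 33.1 FPKM, below all MP points, and those of Cbx7 lie between 6.53 and 8.23, above all MP points.

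Ezh2 (chr6:47530274-47595030) encodes the catalytic subunit of PRC2 that predominates in dividing cells. In the order of their numbers, the MP libraries had 4726, 4859 and 5328 scaled fragments of Ezh2 and the APL libraries 2585, 2552 and 2808, and the same order is kept for the other genes. All APL libraries were thus well below all MP libraries, and the values within each group lay close together. The log2 fold change was -0.91 (95% CI -1.08 to -0.74, SE 0.08, n = 3 libraries per group), a 1.88-fold lower level with a limma adjusted p of 7.76e-06. Ezh2 kept this call under every other unit, scaling, filter on low values and pseudocount and without each library in turn, with log2 fold changes between -1.04 and -0.71. In length-normalized values Ezh2 fell from 59.2 ± 3.63 FPKM to 32.0 ± 0.991 FPKM (mean ± SD, n = 3). In bulk RNA of this kind, fewer cells that express a gene and less RNA per cell cannot be told apart.

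Ezh1 (chr11:101191115-101226450) encodes the alternative catalytic subunit, known from non-dividing cells. It had 789, 805 and 911 scaled fragments in the MP libraries and 855, 906 and 901 in the APL libraries. The groups overlapped, with MP library 3 the highest of all 6 libraries. The log2 fold change was 0.09 (95% CI -0.10 to 0.28, limma adjusted p = 0.364), an interval that does not reach a change of 1.5-fold in either direction. Its sign was not stable, because scaling each library to the same total gave -0.040.

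The catalytic pair shifted relative to each other. The log2 ratio of Ezh1 to Ezh2 FPKM was -3.12, -3.13 and -3.10 in the MP libraries and -2.17, -2.07 and -2.17 in the APL libraries. The ratio, which does not depend on how a library is scaled, was higher in each APL library than in any MP library, by 0.98 on the log2 scale or 1.97-fold. The two-sided exact permutation p was 0.1, the smallest that 3 libraries against 3 allow, and 0.15 after adjustment over the 6 paralog pairs compared. Ezh1 made up 10.4% ± 0.0935 of the summed EZH FPKM in normal MPs and 18.5% ± 0.577 in APL progenitors (SD, n = 3). Ezh2 thus remained the larger part in both groups, while the summed EZH level went from 66.0 ± 4.11 to 39.3 ± 1.04 FPKM (exact permutation p = 0.1).

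Suz12 (chr11:79993106-80034123), the scaffold of PRC2, had 6739, 6691 and 5831 scaled fragments in the MP libraries and 5954, 5439 and 6102 in the APL libraries. MP library 3 lay among the APL libraries, so the groups overlapped. The log2 fold change was -0.14 (95% CI -0.33 to 0.06, limma adjusted p = 0.181), and its sign turned when the median of its chromosome was subtracted (0.033).

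Eed (chr7:89954654-89980976), the subunit that reads H3K27me3 and stimulates the enzyme, had 1963, 2113 and 2253 scaled fragments in the MP libraries. It had 1344, 1425 and 1407 in the APL libraries. All APL libraries were below all MP libraries. Its log2 fold change was -0.60 (95% CI -0.77 to -0.43, SE 0.07, limma adjusted p = 0.000105), a 1.51-fold lower level that only just passed the fold threshold. The call was lost without MP library 3 (-0.55), without APL library 1 (-0.57), in FPKM (-0.58 with a pseudocount of 0.1 and -0.56 with 1), with scaling by the median ratio (-0.54) and after subtraction of the chromosome median (-0.54). The direction was the same in each of these.

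Jarid2 (chr13:44730774-44921643), a DNA-binding accessory subunit that helps recruit PRC2 to chromatin, had 2054, 2036 and 1829 scaled fragments in the MP libraries and 3181, 3294 and 3157 in the APL libraries. Every APL library was above every MP library. Its log2 fold change was 0.70 (95% CI 0.54 to 0.87, SE 0.07, limma adjusted p = 2.71e-05), a 1.63-fold higher level. With each library scaled to the same total it was 0.57 and no longer over the fold threshold. Ezh2 and Jarid2 thus moved in opposite directions in the same 6 libraries.

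Among the PRC1 genes, the E3 ligases were lower in APL progenitors by less than the fold threshold. Rnf2 (chr1:151469406-151500823), the ligase with the greater activity in most cells, had 1709, 1750 and 1787 scaled fragments in the MP libraries and 1361, 1289 and 1413 in the APL libraries. Its log2 fold change was -0.37 (95% CI -0.52 to -0.21, limma adjusted p = 0.00119), or 1.29-fold. Ring1 (chr17:34020792-34024680), its paralog, had 577, 610 and 722 scaled fragments in the MP libraries and 484, 478 and 507 in the APL libraries. Its log2 fold change was also -0.37 (95% CI -0.61 to -0.14, limma adjusted p = 0.0112). For both ligases the groups did not overlap, and neither passed the fold threshold. The log2 ratio of Ring1 to Rnf2 FPKM differed by 0.03 between the groups, with overlapping libraries (exact permutation p = 0.6).

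Bmi1 (chr2:18677018-18686629), the PCGF subunit of canonical PRC1 that represses the Cdkn2a locus, had 1969, 2156 and 2088 scaled fragments in the MP libraries and 2039, 1943 and 1966 in the APL libraries. The groups overlapped. The log2 fold change was -0.06 (95% CI -0.21 to 0.09, limma adjusted p = 0.436), an interval narrower than a 1.5-fold change on either side. Its sign depended on the scaling, with 0.00059 after scaling by the median ratio and 0.11 after subtraction of the chromosome median.

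Cbx7 (chr15:79915807-79932646), a CBX subunit that binds H3K27me3, was the least expressed of the 10 genes in normal MPs and had the largest fold change among them. It had 185, 189 and 238 scaled fragments in the MP libraries and 481, 614 and 509 in the APL libraries. Every APL library was above every MP library, and APL library 2 was the highest. The log2 fold change was 1.38 (95% CI 1.06 to 1.71, SE 0.14, limma adjusted p = 3.02e-05), a 2.61-fold higher level. Genes of chromosome 15 as a whole had a median log2 fold change of 0.46, and the value for Cbx7 was 0.92 after its subtraction and was still called. The part of the chromosome in the result was not tested further. Cbx7 kept its call under every other unit, scaling, filter and pseudocount and without each library in turn, between 0.92 and 1.5.

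Asxl1 (chr2:153346139-153404007) encodes a cofactor of the deubiquitinase Bap1, which removes the ubiquitin placed by PRC1. It had 3605, 3518 and 3037 scaled fragments in the MP libraries and 2631, 2693 and 2675 in the APL libraries. The APL libraries lay below the MP libraries, of which library 3 was the lowest. The log2 fold change was -0.34 (95% CI -0.52 to -0.16, limma adjusted p = 0.00447), or 1.27-fold, under the fold threshold.

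**Figure D2:**
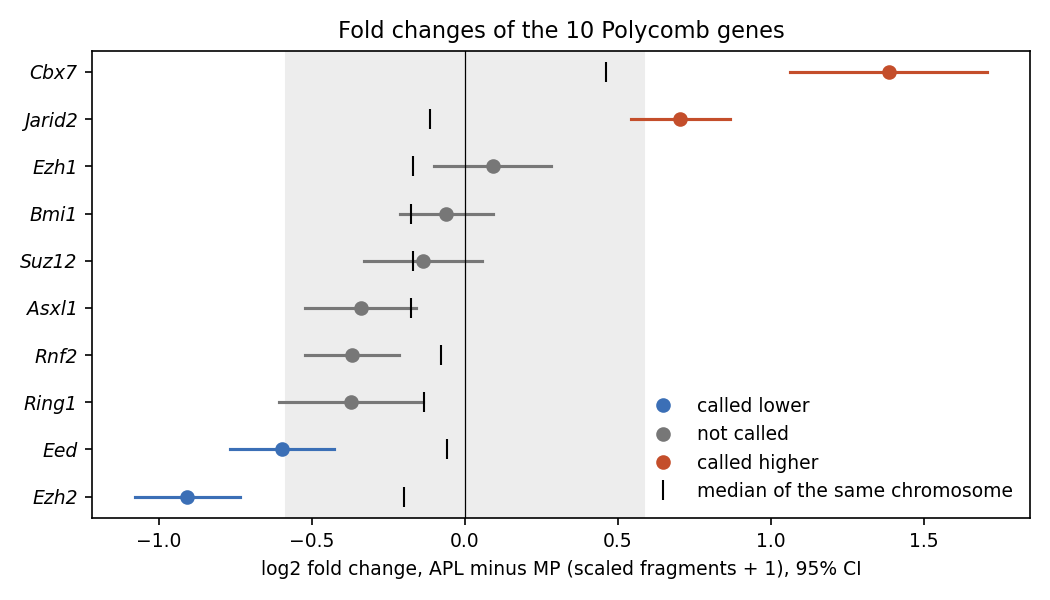
Log2 fold change of APL over MP (points) with its 95% confidence interval from limma (lines) for the 10 Polycomb genes, on the log2(scaled fragments + 1) scale. The grey band marks changes of less than 1.5-fold and black ticks mark the median of all genes on the same chromosome, which is 0.46 for Cbx7 and between -0.20 and -0.06 for the other genes.

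Compared per length, the order of the 10 genes changed at its top and in its middle. In normal MPs the mean FPKM ran from Ezh2 (59.2), Suz12 (51.5) and Eed (36.6) through Bmi1 (22.5), Rnf2 (20.9), Asxl1 (16.8), Ring1 (12.0) and Jarid2 (11.3) to Ezh1 (6.83) and Cbx7 (2.76). The ranges of Bmi1 and Rnf2 overlapped there, as did those of Ring1 and Jarid2, so these neighbours are not ordered beyond their spread. In APL progenitors Suz12 was first (46.4 FPKM), ahead of Ezh2 (32.0) and Eed (24.4), and Jarid2 (18.6) stood between Bmi1 (21.1) and Rnf2 (16.0). Asxl1 (13.2), Ring1 (9.32), Ezh1 (7.28) and Cbx7 (7.24) followed. Only the ranges of Ezh1 and Cbx7 overlapped between neighbours in APL progenitors.

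The CBX, PCGF and EZH genes each encode subunits that take the same position in a complex, so their shares of summed FPKM were compared. Of the FPKM summed over 4 CBX genes (Cbx2, Cbx6, Cbx7 and Cbx8), Cbx7 made up 12.2% ± 1.26 in normal MPs and 22.9% ± 1.06 in APL progenitors (SD, n = 3). Cbx2 went the other way, from 13.6% ± 1.14 to 0.206% ± 0.0886, and Cbx8 from 17.4% ± 3.22 to 9.44% ± 0.707. Cbx6 was the largest part of the 4 in both groups, at 56.9% ± 5.15 and 67.5% ± 1.64. The log2 ratio of Cbx7 to Cbx8 FPKM was higher in APL progenitors by 1.78, or 3.43-fold (exact permutation p = 0.1, the smallest possible). After adjustment over the 6 pairs this p was 0.15, as for each pair with a p of 0.1. Cbx6 and Cbx7 lie on chromosome 15, whose genes had a median log2 fold change of 0.46. Cbx2 and Cbx8 lie on chromosome 11, with a median of -0.17. The part of the chromosomes in these shares and in the ratio was not tested.

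Among the PCGF genes, Bmi1 held 27.1% of the summed FPKM in both groups, with SDs of 0.625 and 0.558. Pcgf5, a subunit of variant PRC1, went from 26.2% ± 1.59 to 37.9% ± 1.39 and Pcgf6 from 18.3% ± 0.528 to 8.50% ± 0.602. Pcgf2, the closest paralog of Bmi1, went from 4.51% ± 0.325 to 2.75% ± 0.0975, and the log2 ratio of Bmi1 to Pcgf2 FPKM was 0.71 higher in APL progenitors (exact permutation p = 0.1). The other paralog pairs compared were Rbbp4 with Rbbp7, with a difference of 0.33 (exact permutation p = 0.1), and Asxl1 with Asxl2, with a difference of -0.23 and overlapping libraries (exact permutation p = 0.2). The loci of Rbbp4 and Rbbp7 each overlap other loci of the table, so their fragments may be shared.

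**Figure D3:**
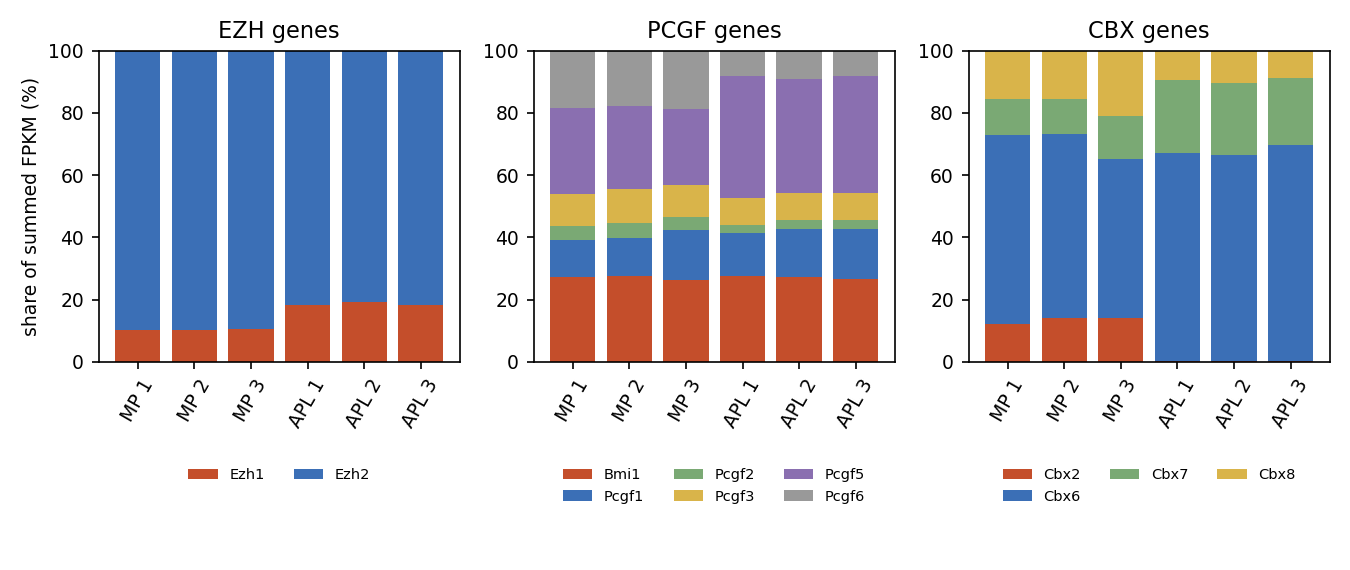
Share of summed FPKM (percent) held by each gene of the EZH and PCGF groups and of 4 CBX genes in each of the 3 MP and 3 APL libraries. Ezh1 takes 10.3% to 10.5% of EZH FPKM in the MP libraries and 18.2% to 19.2% in the APL libraries, and Cbx2 takes 12.2% to 14.2% of the FPKM of the 4 CBX genes in the MP libraries and 0.124% to 0.300% in the APL libraries.

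The 10 genes were then set among 63 genes of the Polycomb complexes and of the enzymes that work against them, 62 of which were tested. Of these, 8 (12.9%) were called higher and 15 (24.2%) lower in APL progenitors, beside 21.7% and 24.4% of all genes, and 39 were not called. Their median log2 fold change was -0.33, beside -0.10 over all genes. The groups did not overlap for 44 of the 62, beside 70.9% of all genes. The non-overlapping count and the share called lower were thus near those of the whole table. The share called higher and the median were below those of all genes, and these differences were not tested.

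In PRC2, 2 of 6 core genes were called, Ezh2 and Eed. The histone-binding subunit Rbbp7 had a log2 fold change of -0.56 (95% CI -0.73 to -0.38) and was not called. Its locus overlaps other genes of the table, so its fragments may be shared. Of 6 accessory genes, 2 were called higher, Jarid2 and Phf19, whose Tudor domain protein links PRC2 to methylated histone H3. Phf19 had 501, 459 and 527 scaled fragments in the MP libraries and 924, 1002 and 985 in the APL libraries, a log2 fold change of 0.97. The other 4 accessory genes, Aebp2, Mtf2, Phf1 and Epop, had log2 fold changes between -0.34 and 0.18. The calls made up 33.3% of each list, beside 24.4% of all genes called lower and 21.7% called higher, and the difference between core and accessory genes was not tested.

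In PRC1, 2 of the 4 CBX genes (50%) were called higher and 1 (25%) lower, beside 21.7% and 24.4% of all genes. Cbx2 had 267, 317 and 333 scaled fragments in the MP libraries and 8.25, 4.33 and 6.17 in the APL libraries, a log2 fold change of -5.43. Cbx6 had a log2 fold change of 0.74, and its locus overlaps other genes of the table, so its fragments may be shared, and Cbx7 was the other gene called higher. Of 6 PCGF genes, Pcgf2 (-0.81) and Pcgf6 (-1.18) were called lower (33.3%, beside 24.4% of all genes) and 4 were not called. The PHC and SCM genes encode subunits that join PRC1 complexes into larger assemblies. Of these, 3 of 5 (60%) were called lower, beside 24.4% of all genes, and no such difference in this paragraph was tested. Scml2 had 485, 484 and 467 scaled fragments in the MP libraries and 4.71, 3.47 and 9.87 in the APL libraries. Scmh1 went from 912 ± 17.7 to 13.9 ± 2.13 and Phc1 from 804 ± 95.4 to 490.3 ± 40.8 (mean ± SD, n = 3). The near absence of Cbx2, Scmh1 and Scml2 RNA in all 3 APL libraries stood apart from the 10 genes, none of which changed by more than 2.61-fold.

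Of 10 genes of variant PRC1, which carries no CBX subunit, 1 (10%) was called higher and 3 (30%) lower. The shares of all genes were 21.7% and 24.4%, and the differences were not tested. E2f6, a repressor of the E2F family that binds DNA within one such complex, had a log2 fold change of -1.5, and Kdm2b, which brings PRC1 to CpG islands, one of -0.60. Auts2 had 85.2, 101 and 108 scaled fragments in the MP libraries and 1.18, 0.867 and 0 in the APL libraries. It passed the filter on low values only through the MP libraries, which fixed its direction, so its call is given as a description. The 15 wider genes called lower, of which Auts2 is 1, were 14 with a filter of at least 1 in all 6 libraries. Yaf2 was the gene called higher (0.66). Among 9 genes of the deubiquitinase and the ASXL family, 1 (11.1%) was called lower, beside 24.4% of all genes. This was Ogt, which encodes the enzyme that adds N-acetylglucosamine to proteins (-0.70), and Asxl1 and Bap1 (-0.45) were not called.

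The H3K27 demethylases, which remove the mark that PRC2 places, were both called lower, beside 24.4% of all genes. Kdm6a had 2117, 2079 and 1943 scaled fragments in the MP libraries and 101, 107 and 98.7 in the APL libraries, a log2 fold change of -4.31 (limma adjusted p = 5.63e-09). Kdm6b had a log2 fold change of -0.80. In the APL libraries Kdm6a was at 0.65 FPKM, compared with 32.0 FPKM for Ezh2 and 7.28 for Ezh1.

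Of 12 genes of the MLL and trithorax group, which encode histone H3 methyltransferases of active genes and their partners, 3 were called higher and 1 lower. These shares were 25% and 8.33%, beside 21.7% and 24.4% of all genes, and the differences were not tested. Kmt2b, listed in the table under its older name Wbp7, had 3581, 3490 and 3203 scaled fragments in the MP libraries and 20014, 20545 and 19662 in the APL libraries, a log2 fold change of 2.55. Kmt2d (1.12) and Ash2l (1.08) were the other genes called higher, and Men1 (-0.74) was called lower. Kmt2d was lowest in MP library 3, with 2405 scaled fragments beside 4234 and 4337.

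Of the 8 genes called higher, 4 lie on chromosome 15 and 1 on chromosome 8, the chromosomes whose genes had median log2 fold changes of 0.46 and 0.48. All 6 of the 62 genes that lie on them were higher in every APL library than in any MP library, and 9.19% of all genes tested lie there. After subtraction of the chromosome median, the log2 fold change was 0.92 for Cbx7, 0.66 for Kmt2d, 0.60 for Ash2l, 0.28 for Cbx6 and 0.20 for Yaf2. The shift of Cbx7 was thus larger than that of its chromosome, and those of Cbx6 and Yaf2 were closer to it.

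**Figure D4:**
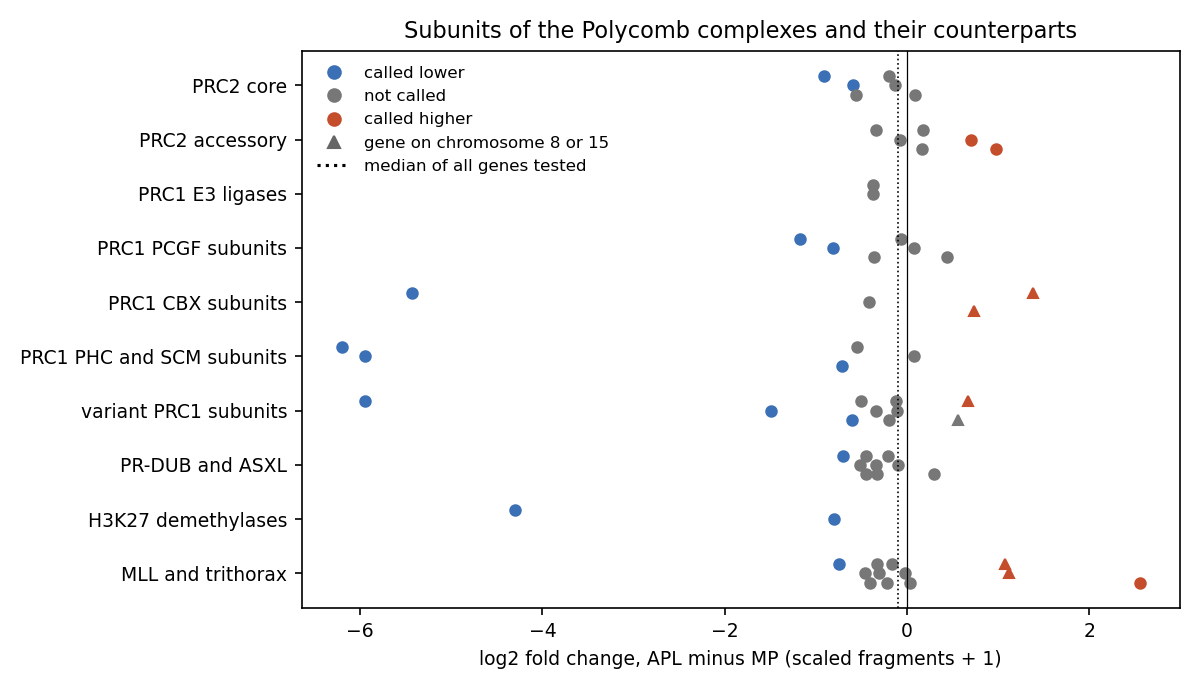
Log2 fold change of APL over MP on the log2(scaled fragments + 1) scale for the 62 genes tested of the Polycomb complexes and their counterparts, 1 point per gene, by complex. Blue, grey and red mark genes called lower, not called and called higher, triangles mark genes on chromosome 8 or 15, and the dotted line is the median of all genes tested (-0.10).

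Genes known from other systems as Polycomb targets were counted next, from lists of cell cycle inhibitors, Hox genes and developmental regulators. The 3 cyclin-dependent kinase inhibitors tested were all called higher, beside 21.7% of all genes. Of these, Cdkn2a passed the filter on low values only through the APL libraries. The filter thus fixed its direction, and the count is given as a description. Cdkn2a, whose products hold back cell division and which Bmi1 is known to repress, had 0 fragments in all MP libraries and 111, 119 and 85.2 scaled fragments in the APL libraries, at least 37.6-fold higher when set against 3 fragments per MP library. Mean scaled fragments of Cdkn1a were 211 in normal MPs and 932 in APL progenitors (log2 fold change 2.14), and those of Cdkn1c were 15.7 and 78.6 (2.29). Cdkn2b was not tested, because fewer than 3 libraries reached a value of 1.

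Of 39 genes of the Hox clusters, 18 were in the table and 13 were tested, of which 12 were called lower and 1 higher, beside 24.4% and 21.7% of all genes. Hoxa9 had 217, 204 and 298 scaled fragments in the MP libraries and 1.18, 0 and 0 in the APL libraries, and Hoxa7 had 133, 118 and 146 beside 2.36, 0 and 1.23. Hoxa3 to Hoxa6 share a locus in the table, so their fragments may be divided between them. The gene called higher, Hoxb13, had 0, 0.952 and 0 scaled fragments in the MP libraries and 28.3, 56.3 and 51.8 in the APL libraries. Nearly all these genes passed the filter on low values only through the group in which they were high, so the filter itself largely fixed their direction, and the counts are given as a description.

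Of 23 developmental regulators of tissues other than blood, 6 were in the table and 3 were tested. Pax6, a factor of eye and brain, had 0 fragments in the MP libraries and 56.6, 64.1 and 45.7 scaled fragments in the APL libraries, at least 19.9-fold higher against 3 fragments per MP library, and its locus overlaps another gene. Six2 was called lower at values of at most 3 scaled fragments in every library, and Eomes was not called. These counts over few genes rest on how many passed the filter on low values.

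**Figure D5:**
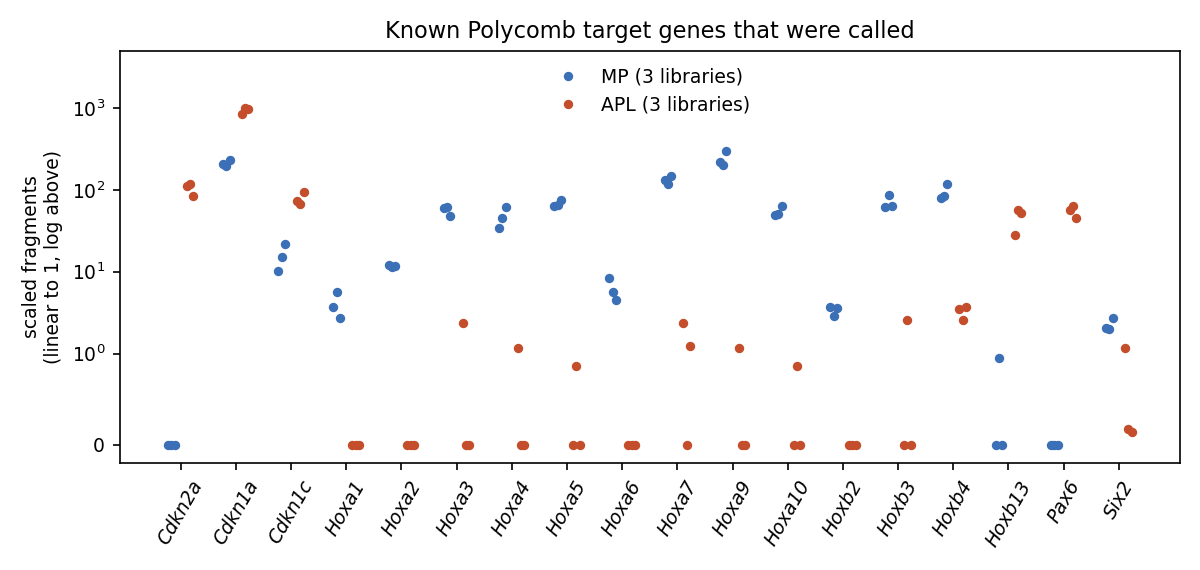
Scaled fragments of each called gene known as a Polycomb target in the 3 MP libraries (blue) and 3 APL libraries (red), on an axis that is linear up to 1 and logarithmic above. The 12 Hox genes called lower sit at or near 0 in the APL libraries, whereas Cdkn2a, Pax6 and Hoxb13 sit at or near 0 in the MP libraries.

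Because Ezh2 is known to follow cell division, 17 proliferation genes were counted. Of these 0 were called higher and 4 lower, beside 21.7% and 24.4% of all genes, with a median log2 fold change of -0.29. The 4 were Ccna2 (-0.86), Top2a (-0.75), Ccnb2 (-0.71) and Birc5 (-0.61), of which 2 encode cyclins of the later cell cycle. Pcna and Mki67 had log2 fold changes of -0.29 and -0.05 and were not called. At any fold 10 of the 17 were lower and 2 higher, beside 37.3% and 29.7% of all genes. Their part in the lower Ezh2 level was not tested.

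The genes whose levels were most like those of Ezh2, by Pearson r of log2(scaled fragments + 1) over the 6 libraries, were Ica1l, Nadkd1 and Ankrd13b, each with r = 1.00 to 2 decimals, and 3196 of the 14594 other genes had r of at least 0.95. For Cbx7 they were Cope, Ficd and Shc1, with 2508 genes at that level, and for Ezh1 they were Kctd2, Zfp688 and Pstk, with 160. The 6 libraries form 2 groups, so a gene that differs between the groups has many like it, and these likenesses are descriptions only.

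The libraries held between 20608715 and 28382785 fragments before scaling. Replicates differed by more than counting noise in each pair, with a chi-square of 9.41 to 107 per gene, and MP library 3 and APL library 2 stood apart from the others of their group. The sorting gene Kit was lower in APL progenitors (-0.85) and Ly6a, which encodes Sca-1, was called higher (0.68) at means of 27.2 and 43.4 scaled fragments. Ly6a lies on chromosome 15, and its log2 fold change was 0.22 after subtraction of the chromosome median. Markers of other cells moved with the groups, and each count below stands beside 21.7% of all genes called higher and 24.4% called lower. The summed erythroid markers were at 53121 to 66016 scaled fragments in the MP libraries and 4460 to 4702 in the APL libraries, with 8 of 8 tested called lower and none at 0 throughout a group. Megakaryocyte markers were lower for 5 of 6 tested (2919 to 3914 in the MP libraries and 225 to 309 in the APL libraries) and B cell markers for 3 of 4 (339 to 433 and 9.43 to 19.9). Genes of the red cell, platelet and B lymphoid lineages were thus lower in APL progenitors. Promyelocyte granule markers were higher for 4 of 5 tested (313764 to 350870 and 793934 to 945747). Of 8 mature neutrophil markers 3 were higher and 2 lower (65181 to 118851 and 211232 to 218384), of 7 monocyte and macrophage markers 3 were higher and 4 lower (5088 to 6219 and 3220 to 3390), and of 3 T and NK cell markers tested 1 was lower (3380 to 3637 and 3365 to 3844), with Cd3e at 0 in all MP libraries and Cd3g at 0 in all APL libraries. Nkg7 alone held most of the T and NK cell sums, with means of 3428 scaled fragments in the MP libraries and 3605 in the APL libraries. These sums therefore say little about the other T and NK cell markers. S100a8 and S100a9 held most of the neutrophil sums. Their means were 29563 and 31426 scaled fragments in the MP libraries and 130600 and 64754 in the APL libraries. The 2 neutrophil markers called lower were Ltf (-1.42) and Ngp (-1.46). Car1 held most of the erythroid sums in the MP libraries (mean 38708) and Tfrc in the APL libraries (mean 4268). The part of the cell makeup in the levels of the Polycomb genes was not tested.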

How the data were processed

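Total RNA of 3 normal MP and 3 c-Kit+ APL libraries was sequenced after TruSeq preparation. The authors deposited 1 table that gives the locus of 16440 genes and, per library, an FPKM value (fragments scaled by transcript length and sequencing depth) and a fragment signal. The submitters' processing notes name CASAVA 1.8, TopHat2 2.0.6 and mm10, whereas the methods section describes trimming with Cutadapt, mapping with STAR to mm9, counting with HTSeq and testing with DESeq2 (P under 0.05, fold change over 1.5). The loci follow GRCm38 (mm10). The tool that made the deposited values and whether strand was used are not given in the sources used here.

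The deposited signal was scaled: most low values were whole multiples (within 0.01) of a step that differed between libraries, between 0.867 and 1.23. The multiples covered 81.5% to 85.9% of nonzero values, so the values were taken as scaled estimates and no count model was used. limma 3.58.1 in R 4.3.3 (lmFit, eBayes with a trend) was fitted to log2(scaled fragments + 1) for the 14595 genes that reached 1 in 3 or more libraries, with Benjamini-Hochberg adjustment over these genes. Ratios and shares of paralogs were taken from FPKM and compared by two-sided exact permutation tests. Fold changes against a group at 0 used 3 fragments per library. The fit was tested on simulated data. Promoter windows came from RefSeq (GRCm38), and 10 of 10 members matched by gene name, at the RefSeq start nearest the deposited locus. That start lay 309 bases from the start of the deposited locus for Asxl1, 168 for Rnf2 and 13 for Ezh1. It coincided for the other members. Figures were drawn with matplotlib 3.10.9.

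The rule for the members uses no measured value, but the members and all gene lists were chosen with earlier results of these data known. Some genes of the lists are not reported here and were left out of the lists, their counts and the shares. The genes named were the 10 members, up to 3 called genes in each direction of every other list by size of change, and the 3 genes most like Ezh1, Ezh2 and Cbx7. Rbbp7, Bap1, the accessory PRC2 genes not called, Cdkn2b, Eomes, Pcna, Mki67, Birc5, Cd3e, Cd3g, Nkg7, Tfrc and the paralogs compared were named after their values had been seen. The alternatives covered the filter, pseudocount, scaling, unit, thresholds, the library number as a block, the chromosome median and each library left out.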

Additional observations from a re-analysis of the deposited data

How the results depend on the processing

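The calls of Ezh2 and Cbx7 and the direction of Eed and Jarid2 were the same under every other unit, scaling, filter on low values and pseudocount and without each library in turn. Of 180 fold changes of the 10 genes under alternatives, 169 kept their direction and their side of the threshold, 7 lost the call (6 of Eed, 1 of Jarid2) and 4 of genes not called changed sign. These 4 were Bmi1 with scaling by the median ratio (0.00059) and after subtraction of the chromosome median (0.11), Ezh1 with each library scaled to the same total (-0.040) and Suz12 after subtraction of the chromosome median (0.033). Scaling to the same total moved the median of all genes from -0.10 to -0.23, and with it the share of lower calls among all calls from 52.9% to 60.8%.

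The 2 members called higher became 1 with a fold change over 2, with the same total and with limma's test against a fold change of 1.5. The 2 called lower became 1 in FPKM with either pseudocount, with the median ratio, with the chromosome median subtracted and in the test against a fold change of 1.5, 0 with a fold change over 2 and 5 with no fold threshold, and lay between 1 and 2 with each library left out. Of the 8 wider Polycomb genes called higher, the count was 4 with a fold change over 2 and 5 in the test against 1.5-fold. The 15 called lower became 7, 8 and, with no fold threshold, 30. The 4 proliferation genes called lower became 0 with a fold change over 2, 1 with the chromosome median subtracted, 1 in the test against 1.5-fold and 10 with no fold threshold, where 2 were higher. A filter of at least 1 in all 6 libraries left 2 target genes higher and 1 lower, from 5 and 13, because genes at 0 in a group were no longer tested.

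The library numbers 1 to 3 are shared by both groups, but same-numbered libraries deviated together no more than others (correlations of 0.11, 0.01 and 0.11 over 12535 genes, beside -0.20 to 0.13 for other pairs). With the number as a replicate block, 3164 genes were higher and 3589 lower, compared with 3167 and 3558, the members' calls were 2 and 2, and the Ezh1 to Ezh2 ratio still differed by 0.98 (exact permutation p = 0.25, the smallest that 3 pairs allow). It lay between 0.95 and 1.00 with each library left out. The count-based alternative was not run because the fragments are scaled estimates. Auts2, Hoxa9, Hoxa7 and Hoxb13, with at most 3 fragments in every library of 1 group, are given without a fold, and the fold of Cbx2 rests on few fragments in the APL libraries.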
